A study of Drosophila melanogaster with 30 samples.

Results

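The effect of the Hr96[2x] strain on the midgut transcriptome was compared between the anterior and the posterior midgut of adult Drosophila melanogaster females. The comparison reads 12 of the 30 libraries of the series, 3 in each of 4 groups. It takes the difference between Hr96[2x] and control in the posterior midgut and subtracts the same difference in the anterior midgut, gene by gene. A negative value therefore marks a gene whose level relative to control was lower in the posterior than in the anterior midgut.

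The control flies were y[1]w[1], and both strains were kept on the control diet at 25 °C and dissected as mated females 10 to 12 days old. The females were kept with males and had been moved to their diet as pupae. Each library held poly(A) RNA of 30 to 50 pooled midgut regions, anterior subregions 1 to 3 or posterior subregions 1 to 4. The other 18 libraries are from TI{TI}Hr96[1] flies (Hr96[1] below) on the control diet and from y[1]w[1] flies on 2 other diets, and the series calls both Hr96 strains mutants. How Hr96[2x] was built, and on which background, are points not given in the sources used here, so the Hr96 allele and the rest of the strain's genome cannot be told apart. The labels speak of collection in triplicate and the design text of sequencing in triplicate, so p-values measure only the spread between these libraries, which may be technical.

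Hr96 encodes a nuclear receptor of the gut that binds sterol and controls genes of lipid digestion, cholesterol uptake and triglyceride use. The fly midgut is a row of regions with different enterocytes: much of the secretion of digestive enzymes and the uptake of fat takes place anteriorly, while the posterior part uses other carriers and peptidases. Enteroendocrine cells, which secrete peptide hormones, and stem cells are scattered between the enterocytes. In bulk RNA of this kind, fewer cells of a type and less RNA per cell cannot be told apart.

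Levels are given as scaled FPKM, fragments per kilobase of transcript, relative to all fragments of the library, divided by a factor per library. The 12 libraries held 10691 to 11840 genes above 0, and their relative depth, read from the width of the deposited confidence limits, ranged from 0.803 to 1.27. Their 10 most abundant genes took 20% to 38.1% of all FPKM in the anterior and 10.3% to 16.3% in the posterior libraries. Genes with too many fragments for an estimate count as 0 in these shares. Each anterior Hr96[2x] library had 10 to 16 of them and each posterior library 0 to 14. In anterior Hr96[2x] they included abundant digestive enzymes such as betaTry, so the shares of those libraries are incomplete. The scaling factors were 0.551 to 0.792 in anterior Hr96[2x] and 0.865 to 1.08 in anterior control libraries. They were 1.03 to 1.27 in posterior Hr96[2x] and 1.08 to 1.44 in posterior control libraries. Replicate 1 of the control stood apart in both regions, and not in 1 gene list alone. The summed level of fat body genes was 2043 scaled FPKM there against 387 and 338 in the other anterior controls. In the posterior controls it was 2005 against 141 and 218. Enterocyte genes summed to 14174 against 7476 and 7022 in the anterior controls, and to 5188 against 2579 and 2421 in the posterior controls. The cause was not tested. Replicate 1 of Hr96[1] stood apart in fat body genes too. Its anterior sum of them was 1217 where its other replicates had 391 and 405, and its posterior sum 1002 where they had 76.3 and 114. In 8 of the 10 groups of the series, all but those of Hr96[2x], replicates 2 and 3 differed least from each other.

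Hr96 itself was checked first. Its level in the anterior controls was 67.9, 43.4 and 61.2 scaled FPKM, and in anterior Hr96[2x] libraries 76.5, 69.3 and 80.0. In the posterior controls it was 65.2, 57.8 and 63.1, and in posterior Hr96[2x] libraries 73.4, 63.7 and 80.3. The Hr96[2x] values lay a little above the controls in the anterior midgut and overlapped them in the posterior midgut. Neither region's difference passed the test (log2 0.40, adjusted p = 0.283 in the anterior and 0.22, adjusted p = 0.669 in the posterior midgut; limma). The effect on Hr96 differed between regions by -0.19 on the log2 scale (SE 0.35, 95% interval -0.90 to 0.53).

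Genes called in both regions moved the same way with 6 exceptions, and a direct test of the difference between regions called 30 genes. Of 8335 genes tested, 1532 (18.4%) differed between Hr96[2x] and control in the anterior midgut at a Benjamini-Hochberg adjusted p under 0.05 in limma. The posterior count was 934 (11.2%). The 647 genes called in both regions were 42.2% of the anterior and 69.3% of the posterior calls, and 641 of them moved the same way, 216 up and 425 down. These regional comparisons contrast different libraries, but they are not independent tests: both use the same fit, with a shared estimate of each gene's spread, and the same filter and scaling. Across all genes tested the 2 regional effects had a Pearson correlation of 0.605 and a Spearman correlation of 0.663, as a description across genes, which are not independent.

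The difference of the effect between regions, tested directly, was called for 30 genes (0.360%). It was negative for 22 of them (0.264%) and positive for 8 (0.0960%), with sizes from 1.29 to 6.30 on the log2 scale. At an unadjusted p under 0.05 there were 455 of the 8335 genes tested, 279 negative and 176 positive. With no region dependence at all, a share of about 0.05 of the genes tested would pass that threshold. The count of 455 is little above that share, so it does not mark a wider set of region-dependent genes. A gene called in 1 region and not in the other is therefore in most cases not shown to differ between regions: the median gene's 95% interval for this difference reached 0.64 (log2) to each side. With FPKM as deposited, 33 genes were called, 15 positive and 18 negative, and the median of all genes moved from -0.01 to 0.30.

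The 30 genes fell into 7 patterns. Of these genes, 11 rose in the anterior midgut without a call in the posterior midgut, and 2 fell there. Another 5 rose and 3 fell in the posterior midgut without an anterior call. A further 3 rose in both regions, with the larger log2 effect in the anterior midgut, and 6 were called in opposite directions. They lay on all large chromosome arms, 7 each on 2L, 3L and 3R, 5 on 2R and 4 on X.

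**Figure D1:**
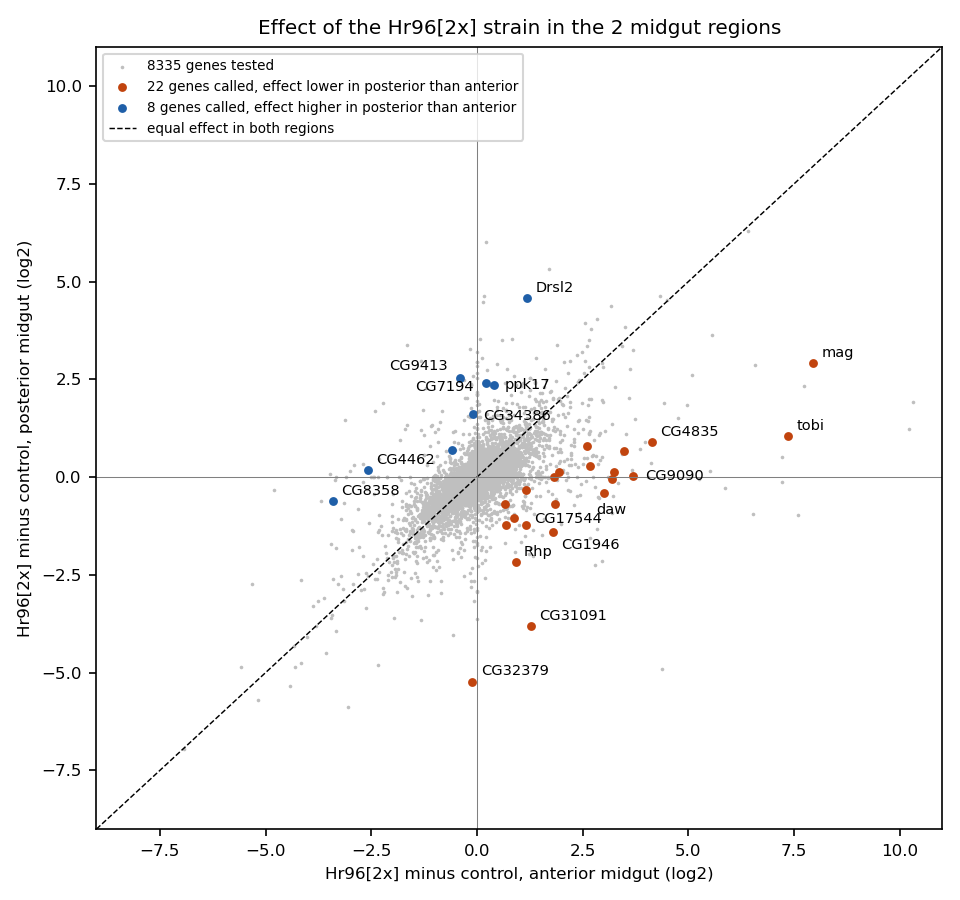
Effect of Hr96[2x] against control (log2) in the anterior midgut (x axis) and the posterior midgut (y axis) for 8335 genes (grey), with the 30 genes called for a difference between regions in colour and the dashed line marking an equal effect. The 22 genes below the line include tobi, mag, CG32379 and CG31091, and the 8 above it include Drsl2, CG9413 and CG7194.

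Among genes of carbohydrate and lipid digestion, tobi and the lipases mag and CG31091 had some of the largest differences. The gene tobi encodes an alpha-glucosidase of the maltase family, known as a target of insulin and glucagon-like signals from the brain. It is FBgn0261575, at chr3R:25344761-25346921 in dm6. Its level was 0.584, 0.870 and 0.685 scaled FPKM in the anterior controls and 159, 158 and 861 in anterior Hr96[2x] libraries. Posterior levels were 0.527, 0.813 and 0.613 in controls and 2.48, 1.34 and 3.86 in Hr96[2x]. The groups did not overlap in either region, as was the case for 36.2% of all genes tested anteriorly and 33.7% posteriorly. The anterior effect was 7.36 (SE 0.46, adjusted p = 6.55e-11) and the posterior effect 1.05 (adjusted p = 0.162) on the log2 scale, a difference of -6.30 (SE 0.65, adjusted p = 1.39e-05; limma). The locus overlaps rha, and the library kit did not mark strand.

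The gene mag (magro, FBgn0036996, chr3L:20460683-20462274) encodes a gut lipase and cholesterol esterase known as a target of Hr96. It went from 1.35, 0.416 and 0.715 scaled FPKM in the anterior controls to 364, 875 and 268 in Hr96[2x]. Its posterior level went from 101, 111 and 85.5 to 757, 2207 and 253. Every Hr96[2x] library was above every control library in both regions, and in controls mag was a posterior gene while in Hr96[2x] the regional levels overlapped. The anterior effect was 7.95 (SE 0.77, adjusted p = 1.29e-07) and the posterior effect 2.91 (adjusted p = 0.0139), a difference of -5.03 (SE 1.09, adjusted p = 0.0381; limma). The Hr96[2x] libraries were spread widely. Leaving out any library other than anterior Hr96[2x] replicate 3 or posterior Hr96[2x] replicate 2 ended the call, with an adjusted p of up to 0.141 (0.00659 to 0.422 over all alternatives).

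CG31091 (FBgn0051091, chr3R:25899903-25902172), a lipase of the same list, moved in the other direction in the posterior midgut. Its posterior controls had 28.3, 42.9 and 12.3 scaled FPKM, and posterior Hr96[2x] libraries 0.385, 2.56 and 0.251. The anterior controls had 7.36, 13.2 and 9.26, and anterior Hr96[2x] libraries 18.3, 71.8 and 11.3. The posterior groups were far apart while the anterior groups overlapped. The posterior effect was -3.81 (SE 0.53, adjusted p = 2.58e-05), the anterior effect 1.27 (adjusted p = 0.099) and the difference -5.09 (SE 0.74, adjusted p = 0.000719; limma).

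CG32379 (FBgn0052379, chr3L:7396355-7398208), a gene of the digestive peptidase list, was close to absent from the posterior midgut of Hr96[2x]. Its level was 78.2, 75.6 and 46.1 scaled FPKM in the posterior controls, and in posterior Hr96[2x] libraries 4.25 and 0.0346, with the last library listed at 0. In the anterior midgut no library of either strain exceeded 0.262. The posterior effect was -5.23 (SE 0.45, adjusted p = 1.65e-08) and the difference between regions -5.12 (SE 0.63, adjusted p = 0.000102; limma), which rests on the posterior midgut since the anterior level was near 0 in both strains.

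**Figure D2:**
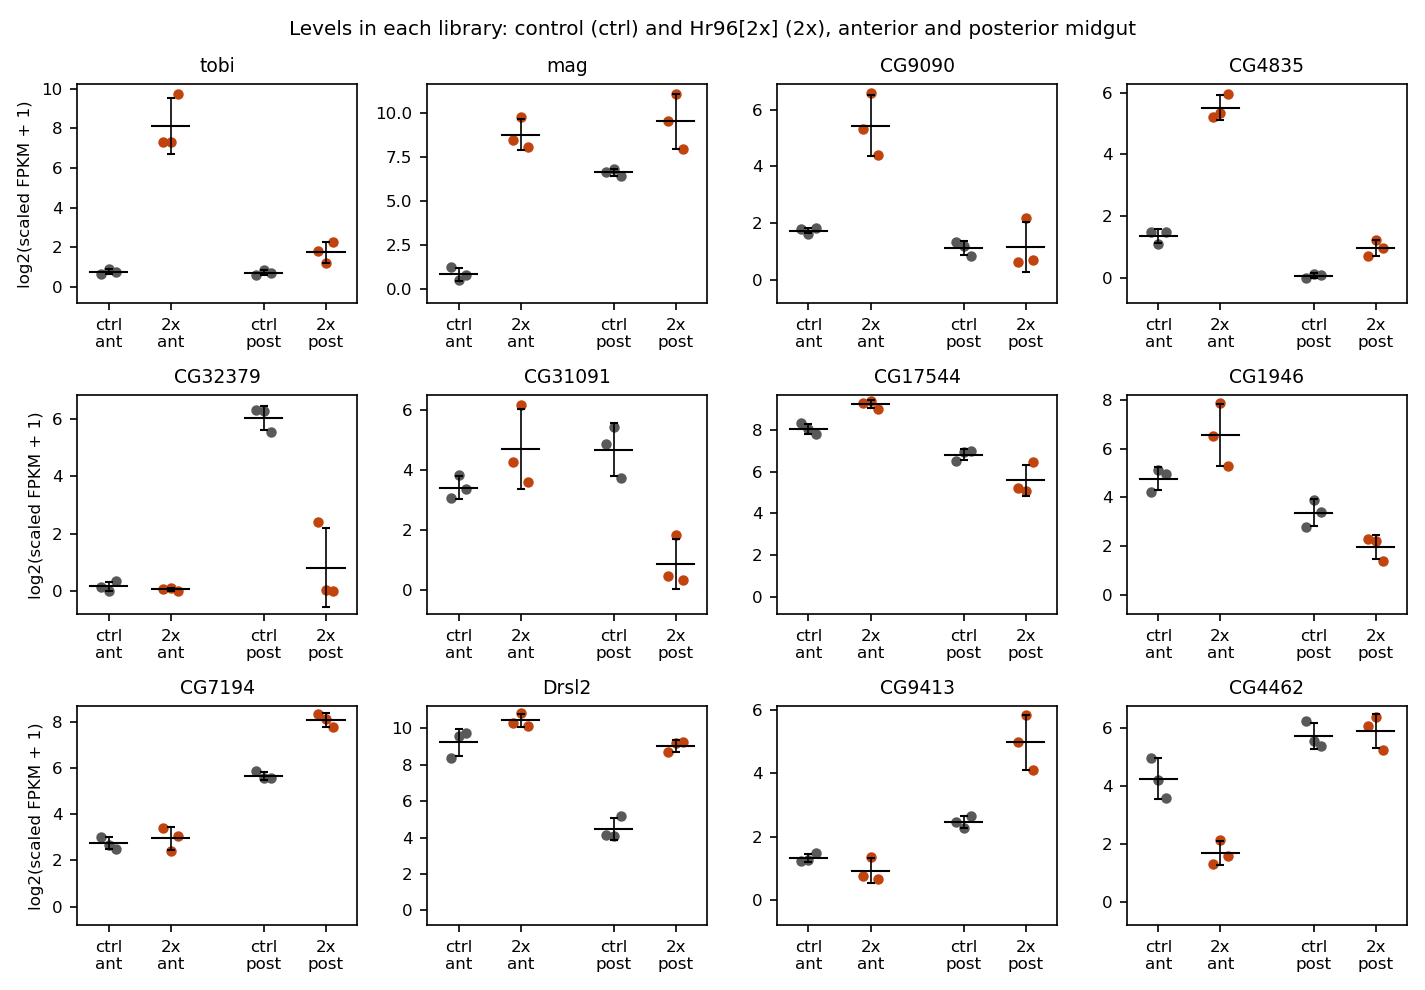
Level of 12 of the 30 genes in each library as log2(scaled FPKM + 1), in control (grey) and Hr96[2x] (orange) anterior (ant) and posterior (post) midgut, with 3 libraries a group; the black line is the mean and the bar 1 SD. tobi and CG9090 were high in anterior Hr96[2x] libraries, CG32379 fell from 46.1 or more to 4.25 or less scaled FPKM in posterior Hr96[2x] libraries, and CG7194 rose in the posterior midgut.

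Of genes of fat storage and oxidation, CG1946 and CG17544 were called in opposite directions. CG1946 (FBgn0033216, chr2R:7714923-7716781) belongs to the DGAT2 family, which makes triglyceride from diacylglycerol. Its level was 17.7, 34.1 and 29.6 scaled FPKM in the anterior controls against 90.0, 231 and 38.4 in Hr96[2x], and 5.93, 13.9 and 9.42 in the posterior controls against 3.84, 3.60 and 1.63. Hr96[2x] was the higher strain in the anterior and the lower in the posterior midgut, with no overlap in either. The effects were 1.79 (SE 0.44, adjusted p = 0.00625) and -1.40 (adjusted p = 0.0405), a difference of -3.19 (SE 0.62, adjusted p = 0.0126; limma). Leaving out anterior control replicate 1, posterior control replicate 2 or posterior Hr96[2x] replicate 3 ended the call, with an adjusted p of up to 0.0637 (0.000505 to 0.237 over all alternatives).

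CG17544 (FBgn0032775, chr2L:19390370-19398493) encodes an acyl-CoA oxidase, the enzyme type that starts fatty acid oxidation in peroxisomes. It had 313, 260 and 224 scaled FPKM in the anterior controls and 616, 655 and 505 in anterior Hr96[2x] libraries. Posterior controls had 90.9, 121 and 125 and posterior Hr96[2x] libraries 35.9, 32.9 and 85.6. The strain order was thus reversed between regions in these libraries, without overlap. The effects were 1.16 (SE 0.26, adjusted p = 0.00293) and -1.24 (adjusted p = 0.00222), a difference of -2.40 (SE 0.36, adjusted p = 0.000958; limma). With FPKM as deposited the anterior effect was 0.65 and not called (adjusted p = 0.104), while the difference kept its call in all alternatives other than a fit of the 4 groups alone (adjusted p = 0.0938 there, 1.06e-05 to 0.0938 over all).

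The other 4 genes called in opposite directions had smaller effects. CG33510, of the ecdysteroid kinase-like family, CG5618, of the pyridoxal-dependent decarboxylases, and CG7054, of the phosphatidylethanolamine-binding proteins, were higher in the anterior and lower in the posterior midgut of Hr96[2x]. CG15365 was the reverse, lower in the anterior and higher in the posterior midgut. CG7054 had 169, 222 and 185 scaled FPKM in the anterior controls against 270, 342 and 309, and 61.5, 122 and 135 in the posterior controls against 40.8, 50.4 and 37.8. CG15365 had 9.43, 7.41 and 7.01 in the anterior controls against 5.01, 4.43 and 5.34, and 2.21, 1.26 and 1.55 in the posterior controls against 3.09, 3.87 and 3.01. The groups of both genes were separate in both regions. Those of CG33510 overlapped in the anterior midgut, at 22.3, 10.7 and 17.9 in controls against 19.1, 42.5 and 35.5 in Hr96[2x]. The differences were -1.91 for CG33510 (adjusted p = 0.0486), -1.34 for CG5618 (0.00364), -1.89 for CG7054 (0.00322) and 1.29 for CG15365 (0.00411), all from limma. The anterior calls of CG33510, CG5618 and CG7054 depend on the scaling: with FPKM as deposited their anterior effects were 0.38, 0.15 and 0.16, none called. Of these differences, those of CG33510 (adjusted p = 0.0871), CG5618 (0.16) and CG7054 (0.137) then lost the call. CG33510 lost it in 17 of 25 alternatives (adjusted p 0.00349 to 0.926), and CG5618 overlaps eRF1.

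The anterior group of 11 genes beside tobi held signalling, carrier and lysosomal genes. CG9090 (current symbol Mpcp1, FBgn0034497, chr2R:20279066-20281127) encodes a mitochondrial phosphate carrier. Its level was 2.45, 2.11 and 2.54 scaled FPKM in the anterior controls and 39.1, 93.9 and 20.4 in anterior Hr96[2x] libraries. The posterior levels were 1.53, 1.31 and 0.793 against 0.550, 3.51 and 0.641. The anterior groups were separate and the posterior groups overlapped. The anterior effect was 3.69 (SE 0.46, adjusted p = 5.27e-06) and the difference -3.65 (SE 0.65, adjusted p = 0.00478; limma).

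The gene daw (dawdle, FBgn0031461, chr2L:2805261-2812376) encodes an activin-type ligand of the TGF-beta family, known to act on sugar metabolism. It was at 0.640, 1.85 and 1.42 scaled FPKM in the anterior controls and at 17.9, 71.1 and 3.34 in Hr96[2x]. Its posterior level was 0.555 or lower in controls and 0.0275 or lower in Hr96[2x]. The anterior groups did not overlap, but the Hr96[2x] libraries covered a wide range. The anterior effect was 3.01 (SE 0.53, adjusted p = 0.000317) and the difference -3.43 (SE 0.74, adjusted p = 0.0381; limma). Leaving out any library other than anterior Hr96[2x] replicate 2 or 3 ended the call, with an adjusted p of up to 0.105 (9.33e-06 to 0.399 over all alternatives).

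CG13397 (current symbol Naglu, a lysosomal alpha-N-acetylglucosaminidase) rose from 1.20, 0.966 and 0.738 to 6.78, 5.82 and 5.41 scaled FPKM in the anterior midgut. Its posterior levels were 1.25, 0.662 and 0.928 against 0.719, 0.946 and 1.18, fully overlapping. The difference was -1.83 (SE 0.26, adjusted p = 0.000513; limma). The C-type lectin gene lectin-28C rose from at most 0.584 to at least 7.99 scaled FPKM in the anterior libraries, a difference of -3.26 (adjusted p = 0.000719), and overlaps TwdlE.

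Of the rest of this group, CG15431 had a difference of -3.10 (adjusted p = 0.000152) and the serine protease gene CG30289 of -2.80 (0.00280), from limma. CG30289 rose from at most 0.0426 to at least 7.56 scaled FPKM in the anterior midgut. Its posterior levels rose too, from at most 0.0265 to at least 0.151, where log2(scaled FPKM + 1) understates changes. For stl, an ADAMTS-type metalloprotease gene, the difference was -2.54 (adjusted p = 0.00282; limma). CG10163 (-1.80, adjusted p = 0.0429), CG9837 (-2.39, 0.0359) and CG6659 (-1.49, 0.0355) were close to the threshold, and each lost the call in several leave-one-out fits, with an adjusted p of up to 0.149, 0.115 and 0.13. CG6659 was well expressed, at 111, 121 and 81.4 scaled FPKM in the anterior controls against 222, 276 and 201. With FPKM as deposited its anterior effect was 0.64 and not called (adjusted p = 0.0725), nor was its difference (adjusted p = 0.396; 0.0191 to 0.422 over all alternatives). The loci of CG15431 and CG9837 overlap other genes.

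The 2 genes that fell in the anterior midgut were CG8358 and CG4462. CG8358 (current symbol Nepl12, a neprilysin-like peptidase gene) fell from 30.2, 21.9 and 13.6 scaled FPKM to at most 1.88. Its posterior level fell too, from 0.592, 0.478 and 0.670 in controls to 0.0622 or less in Hr96[2x]. At such levels log2(scaled FPKM + 1) understates changes, so the larger anterior effect is shown on that scale only. The difference was 2.79 (SE 0.51, adjusted p = 0.00610; limma). Without control replicate 1 in both regions the difference was 2.54 and the adjusted p 0.0678 (3.51e-04 to 0.214 over all alternatives). CG4462 fell from 30.2, 17.2 and 10.8 to 1.46, 3.32 and 1.99. Its posterior levels were 73.1, 45.3 and 39.9 against 64.8, 81.4 and 36.4 scaled FPKM. The anterior groups of CG4462 were separate and the posterior groups overlapped. The difference was 2.75 (SE 0.52, adjusted p = 0.00865; limma).

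The genes that rose in both regions, with the larger log2 effect in the anterior midgut, were mag, CG4835 and rtet. For mag that effect starts from anterior controls near 0. Its mean rose from 0.826 to 502 scaled FPKM in the anterior and from 99.3 to 1072 in the posterior midgut, the larger gain in level. CG4835 (FBgn0035607, chr3L:5479790-5483663) had 1.85, 1.17 and 1.81 scaled FPKM in the anterior controls and 36.2, 39.6 and 61.4 in Hr96[2x]. The posterior level was 0.109 or less in controls and 0.646, 1.37 and 0.949 in Hr96[2x]. The rise was seen in all 3 libraries of each region. The effects were 4.13 (SE 0.26, adjusted p = 6.55e-11) and 0.89 (adjusted p = 0.0249), a difference of -3.24 (SE 0.37, adjusted p = 3.51e-05; limma). The CG4835 mean rose from 1.61 to 45.7 scaled FPKM in the anterior and from 0.0585 to 0.988 in the posterior midgut. At these posterior levels log2(scaled FPKM + 1) understates changes, so the size of its difference depends on that scale. For rtet, a transporter gene of the major facilitator superfamily, the effects were 2.60 (adjusted p = 8.17e-09) and 0.79 (0.0165), a difference of -1.82 (adjusted p = 0.00280).

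In the posterior midgut alone, 5 genes were called higher. Drsl2 (FBgn0052279, chr3L:3314349-3314681) encodes a peptide of the drosomycin family of antifungal peptides. It had 15.8 to 35 scaled FPKM in the posterior controls and 408, 578 and 604 in Hr96[2x]. In the anterior midgut it had 335, 761 and 858 against 1271, 1841 and 1118. Hr96[2x] was above control in every library of both regions, but only the posterior effect was called, 4.57 (SE 0.46, adjusted p = 2.74e-07) against 1.19 (adjusted p = 0.0792). The difference was 3.38 (SE 0.66, adjusted p = 0.0121; limma), and leaving out anterior control replicate 2 or 3 or posterior control replicate 2 raised that to at most 0.0576 (0.00509 to 0.192 over all alternatives). The counting of reads shared with other drosomycin-like genes was not given in the sources used here.

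CG7194 (FBgn0035868, chr3L:8302364-8304059) had 57.2, 45.5 and 46.1 scaled FPKM in the posterior controls and 324, 272 and 218 in Hr96[2x]. The anterior levels were 7.15, 5.42 and 4.66 against 9.61, 4.26 and 7.17. The posterior groups were apart, and the anterior groups overlapped. The posterior effect was 2.42 (SE 0.24, adjusted p = 1.49e-07) and the difference 2.21 (SE 0.33, adjusted p = 0.000946; limma).

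CG9413 (current symbol sbm, an amino acid transporter gene) rose from 4.56, 3.79 and 5.23 to 30.8, 56.6 and 16.3 scaled FPKM in the posterior midgut. It had at most 1.78 in every anterior library, and the difference was 2.92 (SE 0.43, adjusted p = 0.000719; limma). CG34386 rose from 43.2, 34.5 and 26.9 to 90.4, 118 and 117 in the posterior midgut (difference 1.72, adjusted p = 0.00456). The channel gene ppk17, of the DEG/ENaC family, rose from at most 2.15 to at least 8 in the posterior midgut (difference 1.96, adjusted p = 0.00280; limma). Its anterior levels also rose, from at most 0.0708 to at least 0.159 scaled FPKM, where log2(scaled FPKM + 1) understates changes. For ppk17 the larger posterior effect is therefore shown on that scale only. The loci of CG34386 and ppk17 overlap CR45022 and yellow-b.

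Apart from CG32379 and CG31091, Rhp was the only gene of the 30 called lower in the posterior midgut without an anterior call. It had 38.2, 32.8 and 33.8 scaled FPKM in the posterior controls and 5.75, 8.03 and 7.25 in Hr96[2x]. Its anterior levels were 6.06, 9.47 and 10.2 against 13.3, 18.2 and 19.4. Control and Hr96[2x] were separate in both regions, in opposite directions, though the anterior effect was not called (0.92, adjusted p = 0.131). The difference was -3.09 (SE 0.58, adjusted p = 0.00881; limma), and -2.82 with an adjusted p of 0.0994 without control replicate 1 in both regions (0.00334 to 0.425 over all alternatives).

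**Figure D3:**
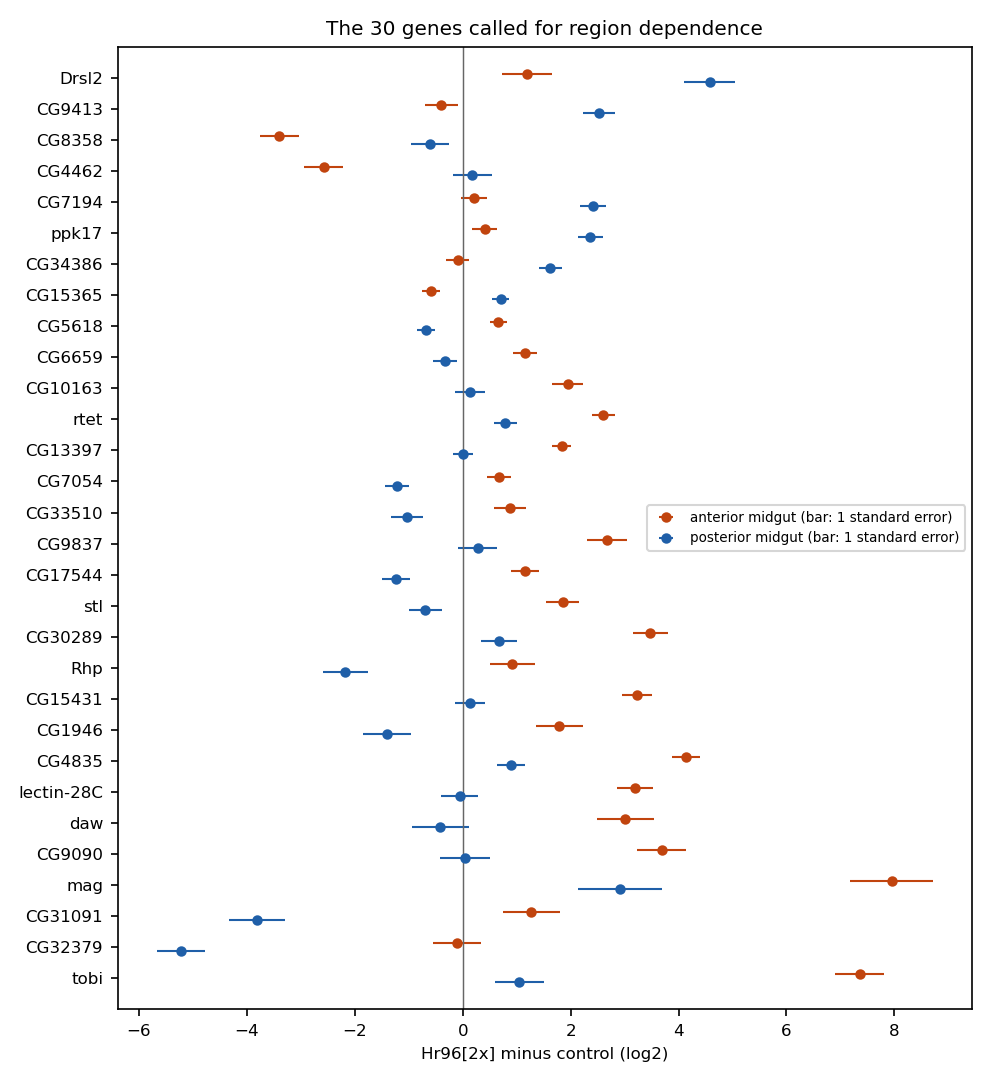
Effect of Hr96[2x] against control (log2, x axis; bars are 1 standard error from limma) in the anterior (orange) and posterior (blue) midgut for the 30 genes called for region dependence, ordered by the difference from tobi (-6.30) to Drsl2 (3.38). Among genes called in both regions, the 2 points lie on opposite sides of 0 for CG17544, CG1946, CG7054, CG5618, CG33510 and CG15365. Further genes with points on opposite sides, such as CG31091 and Rhp, were called in 1 region only.

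At the edge of the call, daw, CG10163 and CG33510 were just inside (adjusted p 0.0381 to 0.0486). Just outside were unc-13-4A (difference 1.35, adjusted p = 0.0558), CG8785 (-1.75, 0.0601), Dh44-R2 (1.83, 0.0601), CG12560 (1.25, 0.0601) and CG18179 (-2.19, 0.0668).

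Whether the Hr96 strains differ from each other in their regional pattern was tested as the difference of the posterior-minus-anterior level between Hr96[2x] and Hr96[1]. The contrast reads no control library, but all 30 libraries of the series enter its scaling, filter and estimate of spread. This difference was called for 54 genes (0.648%), 29 positive and 25 negative. The 11 of the 30 genes above that were among them are no independent support, since both comparisons read the same Hr96[2x] libraries. They were CG9090, daw, lectin-28C, CG15431, stl, CG7054, CG13397, CG34386, ppk17, CG7194 and CG8358. For CG9090, Hr96[1] had 11.6, 5.21 and 4 scaled FPKM in the anterior and 11, 3.59 and 4.96 in the posterior midgut, overlapping ranges, and the strains' region differences differed by -4.18 (SE 0.65, adjusted p = 0.00126; limma). For daw they differed by -4.005 (adjusted p = 0.00589), with no Hr96[1] library above 0.509.

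The effect of Hr96[1] against the same controls also differed between regions for some of the 30 genes. Since the control libraries are shared, its values stand only beside those of Hr96[2x]. For tobi the difference was -7.00 in Hr96[1] (adjusted p = 9.82e-07; limma) and -6.30 in Hr96[2x]. For CG32379 it was -5.88 (adjusted p = 9.03e-06) beside -5.12, for CG31091 -4.75 (0.00184) beside -5.09, and for Drsl2 3.70 (0.00597) beside 3.38. For rtet it was -1.84 (adjusted p = 0.00300) beside -1.82, for CG4835 -1.93 (0.0112) beside -3.24, for CG30289 -2.16 (0.0357) beside -2.80 and for CG5618 -1.02 (0.0481) beside -1.34. The other 22 genes had no adjusted p under 0.05 there, and for mag it was -4.42 (adjusted p = 0.0667).

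The levels behind these values follow. tobi was at 242, 410 and 428 scaled FPKM in the anterior and at 4.26, 0.838 and 0.892 in the posterior midgut of Hr96[1]. CG32379 was listed at 0 in all 6 Hr96[1] libraries. CG31091 had 4.97, 15.6 and 17.9 in the anterior midgut and 0.231 or less in the posterior midgut of Hr96[1]. For tobi the strains' region differences differed by 0.70 (SE 0.65, adjusted p = 1.00), for CG31091 by -0.33 (SE 0.74, adjusted p = 1.00) and for rtet by 0.02 (SE 0.30, adjusted p = 1.00; limma), which does not show that they are alike.

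mag differed in level: it had 6.05, 3.03 and 4.21 scaled FPKM in the anterior and 30.8, 6.07 and 10.8 in the posterior midgut of Hr96[1], below every Hr96[2x] library. Its region difference between strains was -0.62 (SE 1.09, adjusted p = 1.00; limma). Drsl2 had 1082 to 1414 scaled FPKM in the anterior and 472 to 764 in the posterior midgut of Hr96[1], overlapping Hr96[2x] in both regions.

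**Figure D4:**
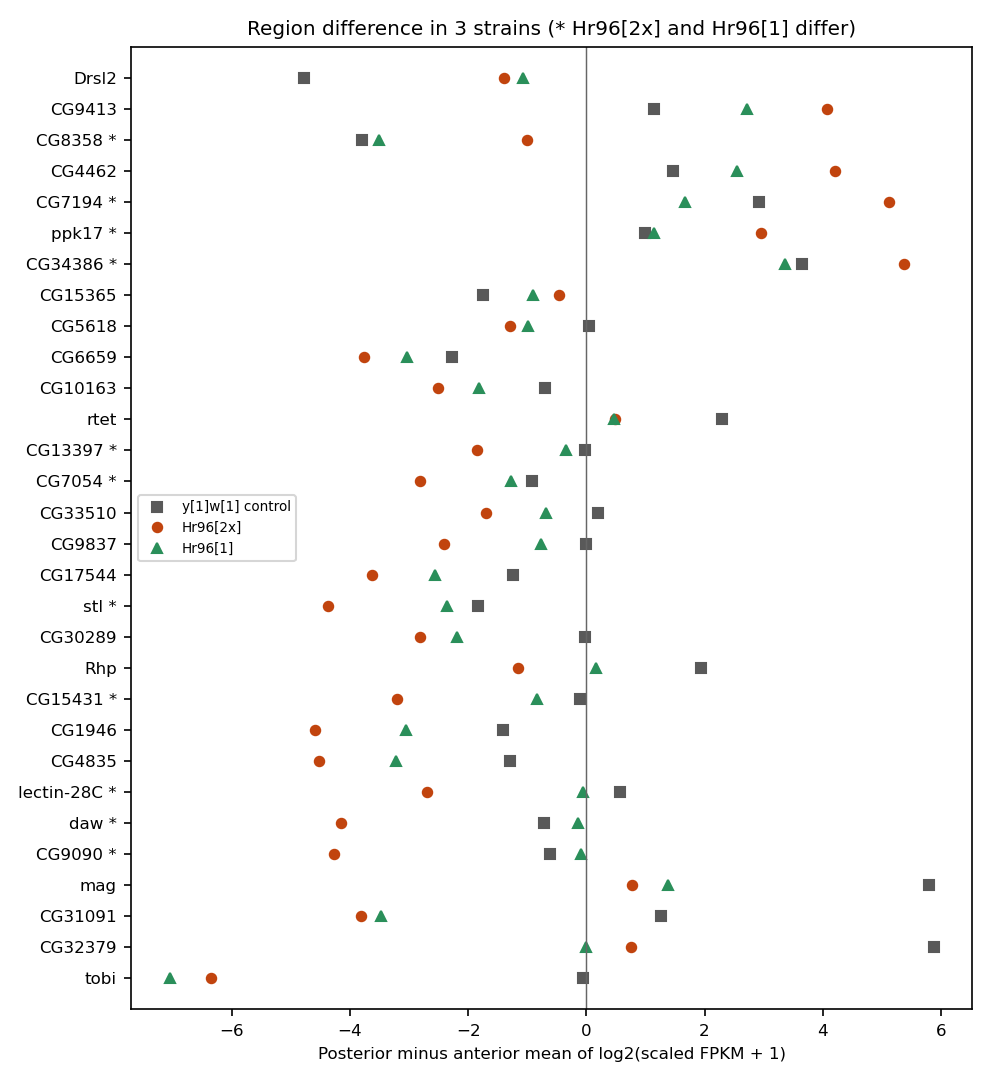
Posterior minus anterior mean of log2(scaled FPKM + 1) for the 30 genes in y[1]w[1] control flies (squares), Hr96[2x] (circles) and Hr96[1] (triangles), 3 libraries a group; asterisks mark the 11 genes called for a difference between Hr96[2x] and Hr96[1]. Hr96[1] lies near Hr96[2x] for tobi and rtet and near the control for CG9090, daw and ppk17.

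The 5 genes with the smallest adjusted p in the comparison of the Hr96 strains were CG7194, epsilonTry, CG13135, Burs and CG4615. The trypsin gene epsilonTry had 30360, 43073 and 31462 scaled FPKM in anterior Hr96[2x] libraries against 2.68, 1.33 and 1.29 in anterior Hr96[1]. The posterior levels were 102, 119 and 52 against 3.32 or less. The strains' region differences differed by -8.24 (SE 0.87, adjusted p = 1.14e-05; limma). That value rests on Hr96[2x], since the gene was low in both regions of Hr96[1]. Against control, epsilonTry rose in both regions of Hr96[2x], by 2.55 (adjusted p = 0.00560) and 3.93 (0.000133), and the effects were not called different (1.38, adjusted p = 1.00).

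Burs, the gene of a subunit of the hormone bursicon, was at 0.646 scaled FPKM or less in all Hr96[2x] libraries and listed at 0 in all 6 controls. In Hr96[1] it was at 35.9 to 50.9 in the anterior and 161 to 314 in the posterior midgut (region difference between strains -2.15, adjusted p = 0.000327). The value for Burs thus rests on Hr96[1]. CG13135 was at 18, 5.28 and 20.9 in anterior Hr96[2x] libraries, at 0.220 or less in Hr96[1] and listed at 0 in all posterior libraries of both (-3.62, adjusted p = 4.94e-05). Its value rests on anterior Hr96[2x]. CG4615 had 1.59 to 1.70 in anterior and 23.8 to 39.1 in posterior Hr96[2x] libraries, against 8.50 to 11.3 and 18.2 to 29.6 in Hr96[1] (2.47, adjusted p = 0.000327). CG7194 had 20.4, 31.1 and 30.3 in the anterior and 75.5, 110 and 80.0 in the posterior midgut of Hr96[1] (3.46, adjusted p = 3.88e-06; limma).

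Counts in the gene lists are read against the 0.360% of all genes called, at which a list of about 20 genes holds a call or none, and a gene without a call is not shown to lack a difference. In the lipid lists, mag was the only 1 of 19 sterol genes called for region dependence, and mag and CG31091 were 2 of 16 digestive lipases, both negative. CG1946 was 1 of 19 genes of triglyceride storage, CG17544 1 of 21 of beta-oxidation, and none of 21 genes of fatty acid synthesis and activation was called. The lipase list had a median difference of -0.86 (log2), against -0.01 over all genes. Within the regions, 7 triglyceride genes rose and 2 fell in the anterior midgut (8.61% and 9.77% of all genes tested did). The posterior counts were 4 and 2 (4.13% and 7.08%). Of beta-oxidation genes 6 rose in the anterior midgut and 1 rose and 1 fell in the posterior midgut. These anterior counts depend on the scaling: with FPKM as deposited 3 triglyceride genes rose and 2 fell, and 2 beta-oxidation genes rose and 1 fell.

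Some lipid genes were called in 1 region without a called difference. Npc2b, a sterol-binding NPC2 family gene, had 25.9, 19.6 and 19.9 scaled FPKM in the posterior controls and 58.7, 58.5 and 55.9 in Hr96[2x]. Its anterior levels were 4.15, 3.91 and 3.90 against 4.10, 6.22 and 4.76. The posterior effect was 1.38 (adjusted p = 4.19e-05) and the difference 1.12 (SE 0.28, adjusted p = 0.0960; limma), while the strains' region differences were called different (1.74, adjusted p = 0.00154). With a pseudocount of 5 the difference of Npc2b was called (adjusted p = 0.0118, and 0.0435 with quantile normalization; 0.0118 to 0.833 over all alternatives) and that of mag was not (adjusted p = 0.216). Acsl, an acyl-CoA synthetase gene, rose in the anterior midgut (1.23, adjusted p = 0.000465; difference -0.94, adjusted p = 0.380). So did CG1941, a DGAT2 family neighbour of CG1946 (0.73, adjusted p = 0.0462; difference -0.94, adjusted p = 0.555). ACC, which makes malonyl-CoA for fatty acid synthesis, was called in neither region (difference 0.89, adjusted p = 1.00).

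Among other digestive genes, CG32379 was the 1 of 47 peptidases and tobi the 1 of 20 amylases, maltases and glucosidases called, both negative. None of the 20 trypsins and Jonah proteases tested was called. In that list the members with the smallest adjusted p were Jon66Cii, with 17.9, 12.1 and 13 scaled FPKM in the anterior controls against 0.218, 0.518 and 0.839 (difference 3.32, adjusted p = 0.0787), and Jon99Fi (-4.18, adjusted p = 0.107). Jon66Cii was called with quantile normalization (adjusted p = 0.0432; 0.00179 to 0.983 over all alternatives). Jon99Fi was called without anterior Hr96[2x] replicate 3 (adjusted p = 0.0221; 0.0163 to 0.852 over all alternatives). Of the peptidase list, CG18179 rose in the anterior midgut, from 224 to 305 scaled FPKM to 1106 or more (effect 2.74, adjusted p = 1.06e-05; difference -2.19, adjusted p = 0.0668; limma). That difference was called with a pseudocount of 5 (adjusted p = 0.00646), without anterior Hr96[2x] replicate 1 (0.019) and without posterior Hr96[2x] replicate 3 (0.0389; 0.00646 to 0.417 over all alternatives). Drsl2 was the 1 of 28 immune genes called. PGRP-SC2, an amidase that degrades bacterial cell wall, rose in the anterior midgut from 266 to 420 scaled FPKM to 1793 or more (2.81, adjusted p = 0.000108), with a difference of -2.27 that was not called (adjusted p = 0.176). Without posterior Hr96[2x] replicate 2 it was -2.77 and called (adjusted p = 0.0334; 0.00946 to 0.852 over all alternatives).

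Several abundant digestive enzymes could not be tested for region dependence, since the quantifier gave no estimate at their loci in anterior Hr96[2x] libraries (status HIDATA, too many fragments). This held for 16, 15 and 10 genes in the 3 anterior Hr96[2x] libraries and for none in the anterior controls. The lysozyme genes LysB, LysC, LysD, LysE, LysP and LysS and the trypsin gene betaTry are listed at 0 in all 3, with mwh, CG32335 and CG9119 at the lysozyme locus. LysP and LysS were low in the anterior controls, at 0.983 FPKM as deposited or less. In the anterior controls LysD had 13980, 16490 and 11220 FPKM as deposited, and betaTry 45780, 46080 and 39890.

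The posterior libraries of these genes had estimates. betaTry had 80.0, 269 and 389 FPKM as deposited in the posterior controls and 5079, 3546 and 2262 in posterior Hr96[2x] libraries, with no overlap. alphaTry had 691, 1274 and 1554 against 11790, 5997 and 8772. In the anterior midgut alphaTry had 36580, 32730 and 27780 in the controls, and 58950 and 65990 in the 2 anterior Hr96[2x] libraries with an estimate. Jon65Aiii and Jon65Aiv had an estimate in 1 anterior Hr96[2x] library, 66260 and 95660 FPKM, against at most 26870 and 38290 in the controls. These values are unscaled and shown as a description.

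Among the cell type lists, none of 22 enteroendocrine genes was called for region dependence. In the anterior midgut 6 of them rose and 1 fell (8.61% and 9.77% of all genes tested did), and in the posterior midgut 11 rose and 1 fell (4.13% and 7.08%). The 6 called in both regions had the same direction, as did 641 of the 647 such genes among all tested. The summed level of the list was 574, 335 and 301 scaled FPKM in the anterior controls against 956, 910 and 914, and 630, 405 and 404 in the posterior controls against 1359, 1633 and 1269. AstC, the gene of the hormone allatostatin C, went from 30.3, 20.5 and 14.1 to 70.5, 61.7 and 63.6 in the anterior midgut. Posteriorly it went from 85.6, 72.9 and 57.7 to 495, 658 and 364. Its effects were 1.61 (adjusted p = 0.00141) and 2.77 (3.19e-06), a difference of 1.16 (adjusted p = 0.604). For pros, the transcription factor gene of these cells, the difference was 0.84 (adjusted p = 0.583; limma). The list's median difference was 0.41, and 0.43 above that of all genes with FPKM as deposited. With a pseudocount of 5 in place of 1, 1 gene of the list was called.

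Of 18 stem cell and enteroblast genes, 22 Notch pathway genes and 26 cell cycle genes, none was called for region dependence, with median differences of 0.35, 0.15 and 0.16. Egfr (0.52) and N (0.42) of the stem cell list had adjusted p of 1.00. The glycosyltransferase gene fng, a modifier of Notch, fell in the posterior midgut from 3.02, 4.24 and 5.13 to 1.24, 1.10 and 1.43 scaled FPKM (-1.17, adjusted p = 0.000172), with a difference of -0.67 that was not called (adjusted p = 0.602; limma). For aph-1, a subunit of gamma-secretase, it was -0.52 (adjusted p = 0.807). Of 14 enterocyte genes 1 was called, mag.

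The 18 cytochrome P450 genes called in both regions all had the same direction, as did 641 of the 647 such genes among all tested. None of 57 cytochrome P450 genes was called for region dependence. Nor was any of 43 glutathione and UDP-glycosyl transferases, 15 heat shock genes, 17 genes of the unfolded protein response, 17 of JAK/STAT and EGFR signalling, 18 regional transcription factors and 21 copper cell genes. CG33510 was the 1 of 38 ecdysteroid kinase-like genes.

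Oxidative phosphorylation genes had the most uneven regional counts without a called difference. In the anterior midgut 31 of 62 rose (8.61% of all genes tested did) and in the posterior midgut 2 (4.13%), while none was called for region dependence, with a median of -0.35. CG7712 and ox rose in both regions. This list follows the scaling: with FPKM as deposited 1 rose in each region and the median difference was 0.03 (-0.27 relative to all genes), and without control replicate 1 in both regions 12 rose in the anterior midgut. None of 76 cytosolic ribosomal protein genes was called (median -0.33, and 0.06 with FPKM as deposited). Relative to all genes these medians were -0.32 and -0.25, and with quantile normalization -0.08.

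**Figure D5:**
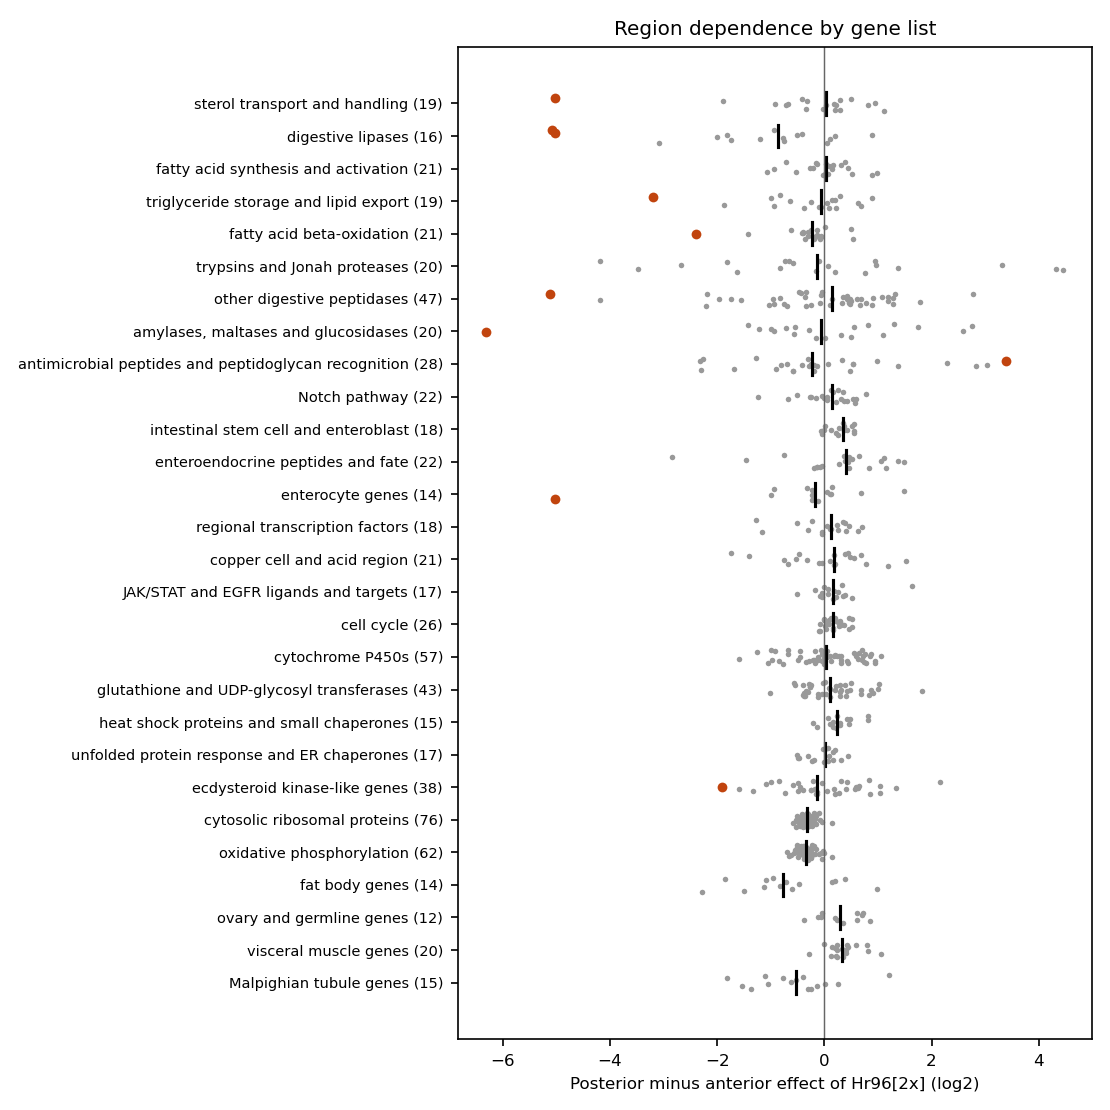
Difference of the Hr96[2x] effect between posterior and anterior midgut (log2, x axis) for each tested gene of the lists with at least 12 tested genes (number in brackets); points are genes, orange for called, and the black line is the list's median. No list holds more than 1 called gene other than the digestive lipases, with 2 (mag and CG31091). The medians lie between -0.86 (digestive lipases) and 0.41 (enteroendocrine).

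Marker lists of other tissues held no gene called for region dependence. This covers 14 fat body, 12 ovary, 20 visceral muscle, 15 Malpighian tubule, 3 hemocyte and 2 neuron genes tested. The fat body list had a median difference of -0.77, and -0.34 without control replicate 1. Its summed level was 422, 744 and 499 scaled FPKM in anterior and 84.5, 155 and 85.0 in posterior Hr96[2x] libraries, beside the control values above. The fat body genes Lsp1alpha, Lsp1beta, Fbp1, Fbp2 and Hn were under 1 scaled FPKM in all 12 libraries. Malpighian tubule genes summed to 467 to 631 in anterior controls against 879 to 1075, and to 251 to 301 in posterior controls against 330 to 633. The part of these tissues in the results was not tested.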

How the data were processed

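Libraries of poly(A) RNA were made without strand marking. Reads were handled with bcl2fastq 2.17.1.14, Bowtie2 2.2.9, TopHat2 2.1.1 and Cufflinks 2.2.1 on dm6 with BDGP6, per the submitters' processing notes. The treatment of reads with several matches was not given in the sources used here. For each gene the authors deposited an FPKM with a quality status and its limits, per the file headers, for 17488 genes in each of 30 libraries. FPKM is a share, so very abundant genes lower all others. Total reads are unknown, and relative depth was taken from the confidence limits of 5680 genes.

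From these, 103 genes with a failed estimate in any library were left out. Each library was divided by its median-of-ratios factor over 8584 genes above 0 in all libraries. Genes averaging 1 scaled FPKM or more (8335) were tested on log2(scaled FPKM + 1), which understates changes of low genes. Limma 3.58.1 in R 4.3.3 fitted a mean for each of 10 groups (20 residual degrees of freedom, variance trend). Tests were 2-sided, with Benjamini-Hochberg adjustment over all genes tested, and a gene was called at an adjusted p under 0.05. Python 3.11.15, pandas 2.3.3, numpy 2.4.6 and matplotlib 3.10.9 did the rest. The fit was tested on simulated data. Locus starts, counted from 0 in the files, were raised by 1.

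The comparison and the 30 gene lists, with 743 of 1007 entries tested, were chosen with earlier results of these data known. Genes were named by rule: Hr96; the 10 largest called differences in each direction with a group mean of at least 5 scaled FPKM and a locus of at least 200 bases; the 6 smallest adjusted p; for 10 lists up to 2 members with the smallest adjusted p, called or not, and for the others up to 3 called members; and the 5 smallest adjusted p between Hr96 strains. The 9 called genes outside it (CG30289, stl, CG10163, CG5618, CG9837, rtet, CG7054, Rhp and CG6659) were named after their values were seen, as were those just outside the threshold, CG7712, ox and the genes with no estimate.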

Additional observations from a re-analysis of the deposited data

Results flagged for a closer look

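The 30 genes called for region dependence are those whose Hr96[2x] effect differed between the posterior and anterior midgut by a direct test. Their differences (log2, posterior minus anterior; limma adjusted p under 0.05) were, from the lowest, tobi -6.305, CG32379 -5.123, CG31091 -5.086, mag -5.034, CG9090 -3.645, daw -3.428, lectin-28C -3.255, CG4835 -3.239, CG1946 -3.191, CG15431 -3.097, Rhp -3.093 and CG30289 -2.802. Then came stl -2.545, CG17544 -2.396, CG9837 -2.394, CG33510 -1.912, CG7054 -1.891, CG13397 -1.827, rtet -1.819, CG10163 -1.804, CG6659 -1.488 and CG5618 -1.341. The positive ones were CG15365 1.292, CG34386 1.720, ppk17 1.956, CG7194 2.209, CG4462 2.755, CG8358 2.790, CG9413 2.924 and Drsl2 3.383.

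Between the Hr96 strains, the region difference of Hr96[2x] departed from that of Hr96[1] by -8.242 for epsilonTry, -3.622 for CG13135, -2.147 for Burs, 2.467 for CG4615 and 3.461 for CG7194 (log2). Among the genes that their status kept out of every comparison, 16, 15 and 10 had no estimate for too many fragments in the 3 anterior Hr96[2x] libraries, against 0 in each anterior control.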

How the results depend on the processing

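The 30 genes kept the sign of their difference in all 24 or 25 alternatives that could be run for each, and 2 of them, tobi and CG4835, kept the call in all. The posterior levels of CG4835 were 1.37 scaled FPKM or less, and no pseudocount under 0.5 was tried. Under leaving out each library in turn 22 kept the call throughout. The others were mag, daw, CG1946, Drsl2, CG33510, CG10163, CG9837 and CG6659. The count of 30 became 61 without a filter, 19 with a mean of at least 5, 10 in a fit of the 4 groups alone and 6 with replicates 2 and 3, the closest pair in most groups, averaged as 1 library. It ranged from 24 to 47 with a library left out, the 47 without anterior Hr96[2x] replicate 3. The share of positive calls was 45.5% with FPKM as deposited against 26.7%. The anterior count of 1532 became 2351 with FPKM as deposited (236 higher, 2115 lower), 847 in a fit of its groups alone and 584 with replicates averaged, and 1004 to 1354 with a library left out (1004 without anterior control replicate 3). The posterior count of 934 became 352 with replicates averaged and 615 to 880 with a library left out (615 without posterior Hr96[2x] replicate 1). The count of 54 between Hr96 strains became 109 without a filter, 32 with a mean of at least 5, 26 in a fit of its groups alone, 7 with replicates averaged, and 35 to 69 with a library left out (35 without posterior Hr96[2x] replicate 1). Signs changed for uncalled values only: Hr96, 0.193 with FPKM as deposited, and Burs, -0.021 and -0.136 without anterior Hr96[2x] replicate 2 and posterior Hr96[2x] replicate 1 (-0.136 to 0.223 over single libraries left out). The causes were not tested.

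Same-numbered anterior and posterior libraries deviated together with correlations of 0.0376 to 0.307 over 6 pairs, 5 over 0.1. Over all 5 conditions 13 of 15 pairs were over 0.1 (up to 0.521), and differently numbered pairs ranged from -0.422 to 0.252. Since not every pair was over 0.1, the numbers were not taken as pairing, though the data hint at it. With the replicate number as a block 36 genes were called for region dependence and 55 between the Hr96 strains. With a block for each condition and number these were 116 and 142, and Jon66Cii (adjusted p = 0.00179), Jon99Fi (0.0163), PGRP-SC2 (0.00946) and Npc2b (0.0243) were then called. Jon66Cii was also called with the number alone as block (0.0333). In the anterior and posterior comparisons the replicate block gave 1751 and 1079. At this precision the median gene's difference is known to 0.64 (log2) to each side.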
